A study of Mus musculus with 2 samples.

Results

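Nuclear receptors are transcription factors whose activity can be set by hormones, vitamins and lipids, and 47 genes of this superfamily were described in Purkinje cells of the mouse cerebellum. The genes were picked by a list of receptor symbols in 19 subfamilies, with no rule on their levels, and all 47 were found among the 43346 mouse genes in the files. The samples were 2 pools of 50 Purkinje cells each, which are inhibitory neurons that carry the output of the cerebellar cortex, from male wild-type adults aged 8 months (C57Bl6, source strain B6NCrl). Both pools carry one group label and no treatment, so there is no contrast between conditions, no p-value is given, and differences between the pools are described by size. The labels link a laser capture protocol for both pools and a Smart-seq library protocol for pool 2 only. The labels number the pools as separate biological replicates, yet give both biosamples a single donor identifier. Whether the pools are from separate animals is not known, and their spread may be technical.

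A nuclear receptor typically binds DNA through a pair of zinc fingers at copies of a short hexamer, alone, as a homodimer or with a retinoid X receptor, and recruits coactivators or corepressors through its ligand-binding domain. Receptors without a known natural hormone are called orphans. RORα, the product of Rora, is the one tied most closely to Purkinje cells: in staggerer mice, which lack a functional RORα, Purkinje cells fail to mature and the cerebellum is small and ataxic.

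The libraries summed to 23830685 (pool 1) and 27907662 (pool 2) expected counts, of which synthetic ERCC spike-in RNAs made up 1.40% and 0.940%. All 15 Purkinje cell markers on the list used were detected, with a summed level of 47988 TPM in pool 1 and 48077 TPM in pool 2. TPM is the deposited, length-corrected share of transcripts. Markers of other cells passed 1 TPM in both pools too. They were all 13 of Bergmann glia and astrocytes (summed TPM 5236 and 5569) and 10 of 12 of oligodendrocytes (230 and 223). Of molecular layer interneurons 8 of 8 passed (59.6 and 77.3), and of Golgi and glycinergic neurons 4 of 6 (370 and 301, most of it Npy). Granule cells had 6 of 8 (109 and 140), and microglia 6 of 10 (26.3 and 44.6). Endothelial cells and pericytes had 8 of 10 (124 and 151), and blood all 5 (651 and 2274). Of all protein-coding genes, 51.7% passed. None of the 4 oligodendrocyte precursor markers did, with summed TPM of 0.53 and 0.62. The levels below are therefore those of captured pools, in which fewer cells of a type and less RNA per cell cannot be told apart.

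Of the 47 receptor genes, 23 were detected, which here means 1 TPM or more in each of the pools. Among all protein-coding genes 51.7% passed the same threshold, and among all mouse genes in the files 28.8%, so the share of receptors detected was close to that of protein-coding genes. A further 3 passed in one pool alone, 11 had counts but stayed under 1 TPM in both pools, and 10 had no count at all. The detected receptors were mostly low. Their median level was 5.94 TPM, against 12.3 TPM for detected protein-coding genes. A mean of at least 5 TPM was reached by 15 receptors, of at least 10 TPM by 7, of at least 20 TPM by 4, and of at least 100 TPM by Rora alone. Detected genes fell in 11 of the 19 subfamilies. In the order of mean levels, only 6 of the 22 neighbouring pairs had levels that did not overlap over the pools: Rora above Nr1d2, Nr2c2 above Esrrg, Nr1d1 above Nr2f1, Nr1h2 above Nr3c2, Pparg above Thrb, and Nr2c1 above Ppara. The levels of the other 16 pairs overlapped over the pools, and in 14 pairs the gene that was higher in pool 1 was the lower one in pool 2.

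**Figure D1:**
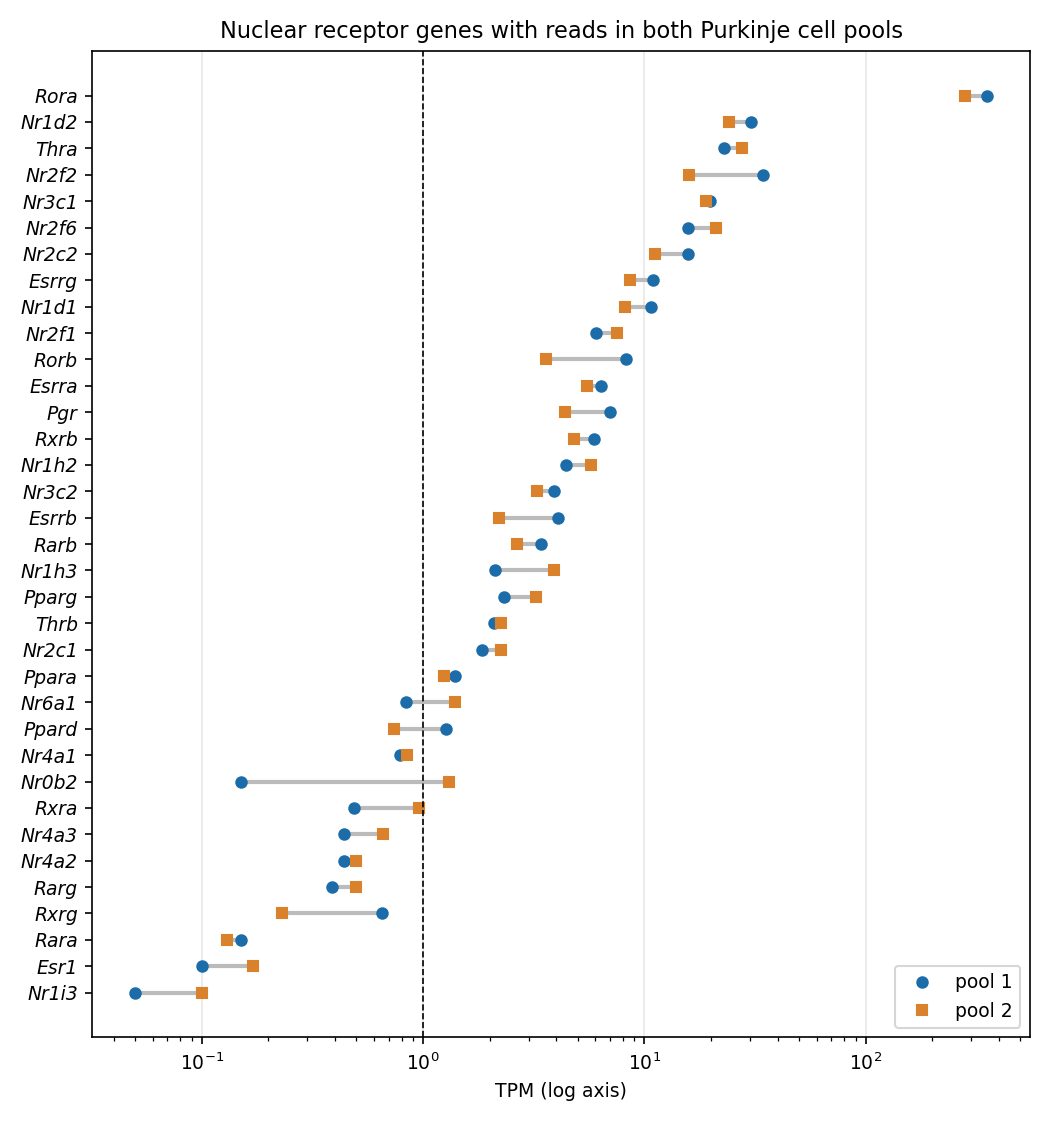
Level of each nuclear receptor gene that had counts in both pools, in TPM on a log axis, with pool 1 as circles and pool 2 as squares; the dashed line marks 1 TPM and the grey bar joins the pools. Rora lies at 354 and 281 TPM, 10.3-fold and 10.2-fold above the next receptor in pool 1 and pool 2.

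Rora, which encodes the orphan receptor RORα (chromosome 9, 68653786 to 69388246 on GRCm38, plus strand), had 354 TPM in pool 1 and 281 TPM in pool 2, from 34394 and 32948 expected counts. Its mean was 317 ± 51.9 TPM (SD, n = 2), and it ranked 333rd and 453rd among protein-coding genes. This single gene made up 61.1% of the summed TPM of all 47 receptors in pool 1 and 58.9% in pool 2. The sums were 580 and 477 TPM with Rora, and 226 and 196 TPM without it. The next receptor was Nr2f2 in pool 1, 10.3-fold lower than Rora, and Thra in pool 2, 10.2-fold lower. The gap between Rora and every other receptor was thus far wider than the spread between the pools.

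The files list 6 transcripts of Rora, and 2 of them carried nearly all of its level. Rora-202 (chr9:69289682-69379809, 2591 nt) encodes 467 amino acids, and Rora-201 (chr9:68653786-69388246, 10878 nt) encodes 523. They start from different first exons and share 1373 coding bases, so the proteins differ at the amino terminus, a region through which RORα isoforms are known to differ in DNA recognition. The start of each coding sequence on the plus strand of GRCm38 is shown to mark where they part, with bases of the transcript's own start in capitals and the first shared bases in lower case.
Rora-201, chr9:68653807-69348161 across its introns: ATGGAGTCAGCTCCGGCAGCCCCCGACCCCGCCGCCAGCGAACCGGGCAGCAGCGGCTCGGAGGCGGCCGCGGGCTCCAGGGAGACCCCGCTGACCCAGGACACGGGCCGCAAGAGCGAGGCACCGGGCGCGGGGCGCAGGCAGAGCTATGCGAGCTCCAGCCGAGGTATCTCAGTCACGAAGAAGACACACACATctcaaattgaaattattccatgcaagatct
Rora-202, chr9:69290021-69348161 across its introns: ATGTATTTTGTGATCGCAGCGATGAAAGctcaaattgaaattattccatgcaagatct
The start of Rora-201 has 196 bases of its own and that of Rora-202 has 28.

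Rora-202 had 248 TPM in pool 1 and 202 TPM in pool 2, which was 69.96% and 72.1% of the gene. Rora-201 had 103 TPM in pool 1 and 74.3 TPM in pool 2, or 29.1% and 26.5% of the gene. The deposited bounds of both transcripts were well apart in each pool: in pool 1 they ran from 236 to 246 TPM for Rora-202 and from 98.9 to 102 TPM for Rora-201, and in pool 2 from 194 to 202 TPM and from 71.5 to 73.8 TPM. No source used here states the confidence level of these bounds, and the deposited Rora values lie just above their upper bounds in both pools. The order of the transcripts turned with the length correction. By expected counts Rora-202 held 35.6% and 38.5% of the gene and Rora-201 held 64.2% and 61.1%, since Rora-201 has 9288 bases after its coding sequence and Rora-202 has 851. The remaining transcripts were minor. Rora-204, a non-coding transcript at the upstream end of the gene, had 2.60 TPM in pool 1 and 2.84 TPM in pool 2. Rora-206 and Rora-203 stayed under 1 TPM in both pools, and Rora-205 was listed at 0.

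**Figure D2:**
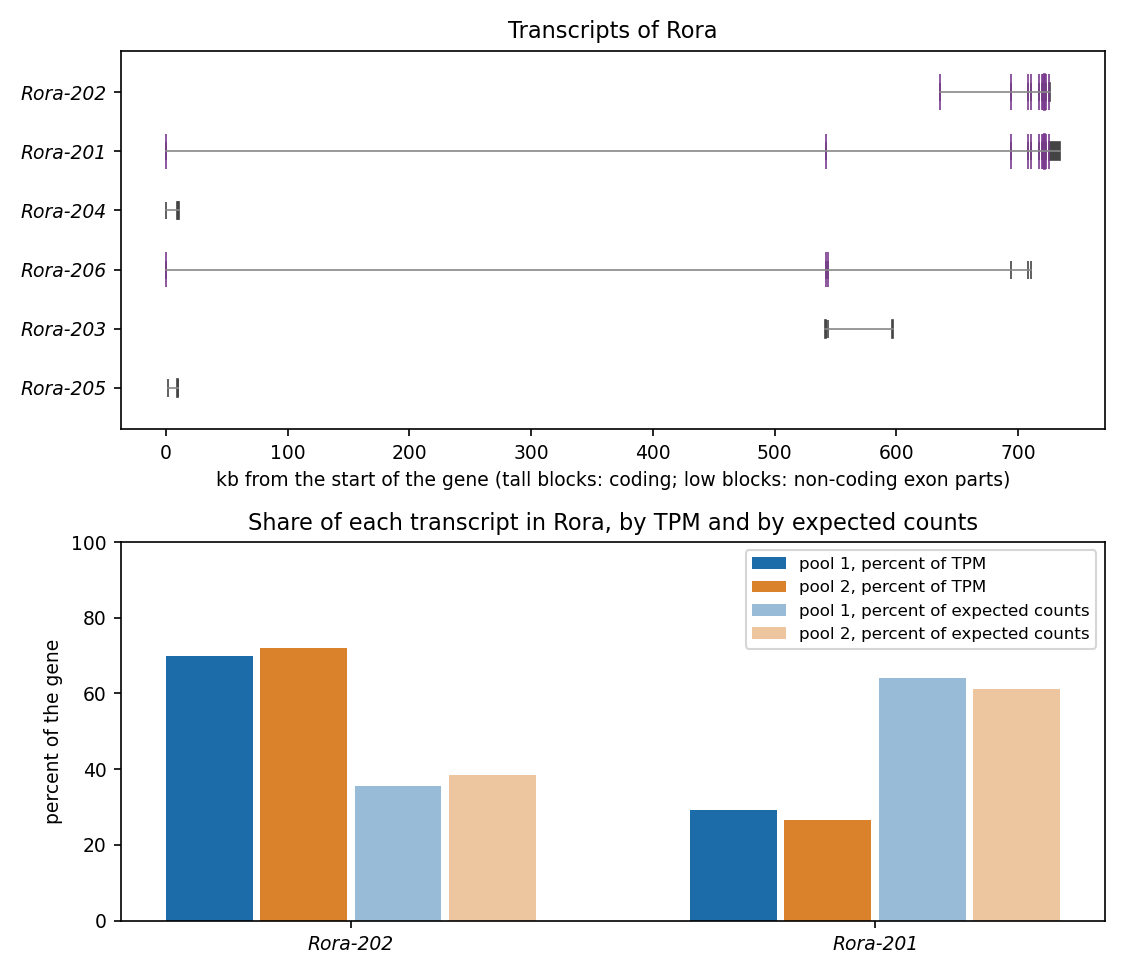
Top, exons of the 6 Rora transcripts by distance in kb from the start of the gene, with coding parts tall. Bottom, percent of the gene in Rora-202 and Rora-201 by TPM and by expected counts in pool 1 and pool 2; Rora-202 leads by TPM (69.96% and 72.1%) and Rora-201 by counts (64.2% and 61.1%).

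Rorb, which encodes the related receptor RORβ, was low beside Rora, with 8.30 TPM in pool 1 and 3.59 TPM in pool 2. Rora held 97.7% and 98.7% of the summed TPM of this pair. The 5 genes known in mice as RORα-dependent in Purkinje cells were all detected, against 51.7% of protein-coding genes. Pcp4, a calmodulin-binding peptide, had 16756 TPM in pool 1 and 17167 TPM in pool 2, and Pcp2, a modulator of G protein signalling, had 6245 and 6524 TPM. Itpr1, the IP3 receptor, had 547 and 367 TPM, and Slc1a6, a glutamate transporter, had 69.9 and 104 TPM. The secreted signal Shh, the lowest of the list, had 2.47 and 2.20 TPM. The list medians were 547 TPM in pool 1 and 367 TPM in pool 2.

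The Rev-erb receptors, which bind heme and repress at the same DNA elements that ROR proteins use, were both present. Nr1d2, encoding Rev-erbβ (chromosome 14, 18204054 to 18239127, minus strand), had 30.35 TPM in pool 1 and 24.3 TPM in pool 2. It was the second receptor by mean level only, since Nr2f2 was above it in pool 1 and Thra in pool 2. Nr1d1, encoding Rev-erbα (chromosome 11, 98767932 to 98775333, minus strand), had 10.8 and 8.20 TPM. Nr1d2 thus made up 73.8% and 74.7% of the pair, and the 2 pools gave nearly the same split. Nr1d2-201 held 98.5% and 98.9% of its gene. Of 18 circadian clock genes, in which Rev-erbs and RORs are known to act on transcription, 17 were detected, against 51.7% of protein-coding genes. The medians were 17.4 TPM in pool 1 and 16.5 TPM in pool 2. Dbp, a PAR-domain activator, led with 57.1 and 59.4 TPM, followed by the repressor Ciart (53.7 and 46.4 TPM). Arntl, which encodes the activator BMAL1, had 29.7 and 26.9 TPM. Its known alternative partner Npas2 was the undetected gene, at 0.55 and 0.36 TPM. The labels state no time of day, so these levels are from unknown clock times.

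A motif search was made in the promoters, from 250 bases before to 50 bases after each RefSeq start on GRCm38.p6. The ROR element, an A/T-rich stretch followed by the AGGTCA or GGGTCA half-site and searched on both strands, was present in 0.384% of 32851 promoters. It was in none of the 64 promoters matched to 43 of the 47 receptor genes. Among the RORα-dependent genes it was in Pcp2, 1 of 3 genes matched, and among the clock genes in Arntl, 1 of 14 matched. Both promoters are shown with the element in capitals, in the direction of the gene. The Pcp2 element lies on the strand opposite to the gene, so the capitals are its reverse complement.
Pcp2, chr8:3625233-3625532, minus strand: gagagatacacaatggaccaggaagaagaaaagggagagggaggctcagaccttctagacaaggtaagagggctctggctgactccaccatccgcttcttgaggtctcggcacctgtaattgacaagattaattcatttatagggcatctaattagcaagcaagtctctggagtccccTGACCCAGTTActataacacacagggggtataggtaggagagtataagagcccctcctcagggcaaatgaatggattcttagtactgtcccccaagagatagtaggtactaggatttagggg
Arntl, chr7:113207261-113207560, plus strand: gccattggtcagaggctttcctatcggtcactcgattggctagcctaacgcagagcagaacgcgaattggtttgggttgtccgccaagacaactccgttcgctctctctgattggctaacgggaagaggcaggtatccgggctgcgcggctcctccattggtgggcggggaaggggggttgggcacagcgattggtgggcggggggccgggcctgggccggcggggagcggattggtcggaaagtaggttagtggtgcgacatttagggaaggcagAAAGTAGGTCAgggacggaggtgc
The first base of the Pcp2 element as printed is 72 bases before the start, and that of Arntl lies in the transcribed part of the window. The half-site alone is common: AGGTCA was in 12 of the 64 receptor promoters and in 16.3% of all promoters, and GGGTCA in 12 of 64 and 13.7%. CACGTG, the E-box bound by CLOCK and BMAL1, was in 6 of 64 and in 7.15%. Each ROR element also contains one of the half-sites. A match is a run of letters, and whether RORα binds there was not measured.

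Among the thyroid hormone receptors, Thra was far above Thrb. Thra (chromosome 11, 98740638 to 98769006, plus strand) had 22.95 TPM in pool 1 and 27.6 TPM in pool 2, whereas Thrb had 2.09 and 2.25 TPM. Thra made up 91.7% and 92.5% of the pair. The gene is known to make a hormone-binding receptor, TRα1, and a splice form, TRα2, whose different carboxyl terminus does not bind the hormone. These correspond by coding length to Thra-202 (410 amino acids) and Thra-201 (492). The coding sequence around the point where they part is shown for the plus strand of GRCm38, with the shared bases in lower case and each transcript's own bases in capitals.
Thra-201, chr11:98764347-98768247 across an intron: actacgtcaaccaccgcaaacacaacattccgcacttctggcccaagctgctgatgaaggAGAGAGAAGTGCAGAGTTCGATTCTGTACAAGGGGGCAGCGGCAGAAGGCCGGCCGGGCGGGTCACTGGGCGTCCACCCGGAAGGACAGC
Thra-202, chr11:98764347-98764496: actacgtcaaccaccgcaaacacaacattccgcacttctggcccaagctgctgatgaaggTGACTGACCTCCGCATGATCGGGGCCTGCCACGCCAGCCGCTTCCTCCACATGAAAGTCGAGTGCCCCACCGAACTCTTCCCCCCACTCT
After 1111 shared coding bases Thra-201 has 365 of its own and Thra-202 has 119, stop codons left out.

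The non-binding form predominated. Thra-201 had 18.2 TPM in pool 1 and 22.4 TPM in pool 2, or 79.2% and 81.1% of the gene. Thra-202 had 2.19 and 3.10 TPM, or 9.55% and 11.2%. Both transcripts are of similar length (2452 and 2246 nt), so here the length correction weighs little: by expected counts Thra-201 held 84.6% and 85.3%. The end of Thra-201 lies opposite the end of Nr1d1. Their exons share 263 bases on opposite strands (chr11:98768157-98768419), which is 10.7% of Thra-201, and all 263 are coding in Thra and 197 are coding in Nr1d1. Thra-202 ends before this stretch and shares none. No source used here states whether the authors' counting used strand, so reads of the shared stretch could be assigned to either gene.

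**Figure D3:**
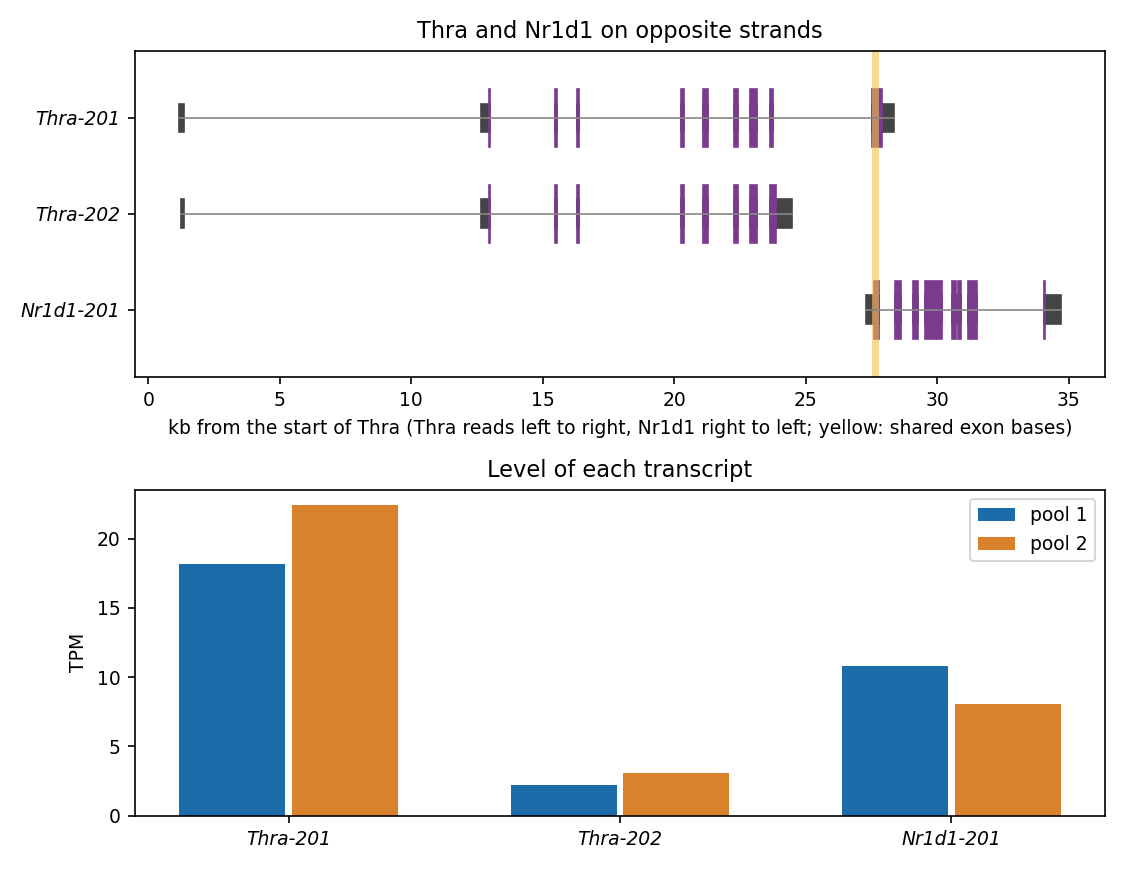
Top, exons of Thra-201, Thra-202 and Nr1d1-201 by distance in kb from the start of Thra, coding parts tall, with the exon bases shared by Thra-201 and Nr1d1-201 in yellow. Bottom, TPM of each transcript in pool 1 and pool 2; Thra-201 stands at 18.2 and 22.4 TPM and Thra-202 at 2.19 and 3.10 TPM.

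Of 13 genes for thyroid hormone handling and response, 7 were detected, a share close to that of protein-coding genes given above. The medians were 1.73 TPM in pool 1 and 1.55 TPM in pool 2. The lipogenic response gene Thrsp led with 102 TPM in pool 1 and 138 TPM in pool 2, and the amino acid transporter chain Slc3a2 followed with 57.3 and 54.5 TPM. Klf9, a transcription factor induced by thyroid hormone and by glucocorticoids, had 20.05 and 18.5 TPM, and the hormone transporter Slco1c1 had 3.18 and 3.50 TPM. Genes outside the top of the list show the handling side: the activating deiodinase Dio2 was at 2.20 and 1.83 TPM, and the inactivating deiodinase Dio3 at 0 and 0.02 TPM.

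Receptors for retinoids were low. Rxrb, one of the retinoid X receptors that serve as partners of many others, had 5.95 TPM in pool 1 and 4.82 TPM in pool 2, while Rxra (0.49 and 0.96 TPM) and Rxrg (0.65 and 0.23 TPM) stayed under 1 TPM. Rxrb was 83.9% and 80.2% of the summed TPM of these 3 genes. Among the retinoic acid receptors only Rarb passed, with 3.43 and 2.65 TPM, against 0.39 and 0.50 TPM for Rarg and 0.15 and 0.13 TPM for Rara. The Rarb share of 86.4% and 80.8% is uncertain on 2 counts: it averaged 36.8% when the deposited posterior mean TPM was used, and 57.7% of the Rarb-201 transcript lies opposite exons of Top2b, which had 34.01 and 23.2 TPM. Of 16 genes for retinoid transport and metabolism, 6 were detected, against 51.7% of protein-coding genes. They were led by the lipid carrier Fabp5 (215 TPM in pool 1 and 256 TPM in pool 2), the retinal reductases Dhrs3 (88.2 and 60.6 TPM) and Rdh11 (54.8 and 48.7 TPM), and the retinal dehydrogenase Aldh1a1 (52.8 and 51.1 TPM). The list medians were 0.405 and 0.325 TPM.

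All 3 COUP-TF genes were detected. These orphan receptors act mostly as repressors and are known as regulators of neural development. Nr2f2, encoding COUP-TFII (chromosome 7, 70351944 to 70366735, minus strand), had 34.25 TPM in pool 1 and 15.9 TPM in pool 2. Nr2f6, encoding EAR2 (chromosome 8, 71374123 to 71381960, minus strand), had 15.8 and 21.1 TPM, and Nr2f1, encoding COUP-TFI, had 6.05 and 7.55 TPM. The leader of the subfamily was not the same in both pools: Nr2f2 held 61.1% of it in pool 1 and 35.7% in pool 2, and Nr2f6 held 28.1% and 47.3%. Nr2f2-201, which encodes 414 amino acids, made up 77.1% and 88.4% of Nr2f2, and Nr2f2-202, which encodes 281, made up 22.9% and 11.6%. Nr2f2-202 was at 7.83 TPM in pool 1 and 1.85 TPM in pool 2, and 38.6% of it lies opposite exons of B130024G19Rik (3.21 and 0.95 TPM), while Nr2f2-201 (26.4 and 14.1 TPM) shares none. Of the Nr2f6-201 transcript, which held 77.8% and 88.3% of its gene, 41.2% lies opposite exons of Ocel1 (0.72 and 1.95 TPM).

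The testicular orphan receptor TR4 is encoded by Nr2c2 (chromosome 6, 92091390 to 92174294, plus strand), which had 15.8 TPM in pool 1 and 11.1 TPM in pool 2. Its paralog Nr2c1, encoding TR2, had 1.85 and 2.25 TPM, so that Nr2c2 was 89.5% and 83.2% of the pair. The leading Nr2c2 transcript was not the full-length one. Nr2c2-203, a 1065 nt transcript (chr6:92138015-92139832) with only 14 annotated coding bases, held 55.8% and 51.8% of the gene's TPM. Nr2c2-201, which encodes 596 amino acids, held 20.4% and 28.6%. By expected counts the order turned, with 56.9% and 67.8% for Nr2c2-201. Of the bases of Nr2c2-201, 46.2% lie opposite exons of Mrps25, a mitochondrial ribosomal protein gene at 136 and 155 TPM, and Nr2c2-203 shares none.

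Of the steroid receptors, the glucocorticoid receptor led. Nr3c1, its gene (chromosome 18, 39410545 to 39519421, minus strand), had 19.8 TPM in pool 1 and 18.98 TPM in pool 2, a mean of 19.4 ± 0.566 TPM (SD, n = 2). The pools differed here by less than counting error. Pgr, the progesterone receptor gene, had 7.0 and 4.37 TPM, and Nr3c2, encoding the mineralocorticoid receptor, had 3.92 and 3.28 TPM. Nr3c1 made up 64.4% and 71.3% of these 3 genes. Esr1, encoding estrogen receptor α, had 0.10 and 0.17 TPM from 13 and 27 expected counts, and Esr2 had no count. The full-length Nr3c1-204 held 55.98% and 38.9% of its gene, and the shorter Nr3c1-208 (1891 nt) held 27.4% and 32.7%. The other full-length transcript Nr3c1-203, which also codes for 792 amino acids, held 12.2% and 23.5%. The deposited bounds of Nr3c1-204 overlapped between the pools (7.25 to 12.2 TPM in pool 1 and 5.22 to 10.1 TPM in pool 2). Those of Nr3c1-203 did too (1.01 to 5.63 TPM and 1.52 to 6.29 TPM).

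Genes that serve steroid receptors were read against the 51.7% of protein-coding genes detected. Of 10 chaperones of the steroid receptor complex, 9 were detected, with medians of 189 TPM in pool 1 and 168 TPM in pool 2. Hsp90aa1 had 1935 and 2261 TPM, Hspa8 had 1981 and 1841 TPM, Hsp90ab1 had 1198 and 1293 TPM, and Ptges3, the p23 cochaperone, had 432 and 363 TPM. The undetected one was Fkbp5, a cochaperone gene that glucocorticoids induce. Of 10 glucocorticoid-responsive genes 8 were detected. The leucine zipper gene Tsc22d3 led with 113 and 135 TPM, followed by the cell cycle inhibitor Cdkn1a (80.5 and 89.8 TPM), Klf9 (above) and the EGFR inhibitor Errfi1 (17.6 and 15.02 TPM). Of 17 genes of steroid synthesis and metabolism, 8 were detected, a share close to that of protein-coding genes. Hsd11b1, whose enzyme regenerates active glucocorticoid, had 133 and 173 TPM, Hsd17b10 had 72.0 and 65.5 TPM, the mitochondrial membrane protein gene Tspo had 34.4 and 37.8 TPM, and the sulfotransferase gene Sult2b1 had 9.53 and 11.8 TPM. Cyp19a1, encoding aromatase, had no count in either pool.

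All 3 estrogen-related receptors, orphans that act with PGC-1 coactivators on mitochondrial genes, were detected. Esrrg, encoding ERRγ, had 10.99 TPM in pool 1 and 8.61 TPM in pool 2. Esrra, encoding ERRα, had 6.37 and 5.51 TPM, and Esrrb, encoding ERRβ, had 4.09 and 2.20 TPM. Esrrg took 51.2% and 52.8% of the subfamily, a split that differed little between the pools. Its full-length transcript Esrrg-201 had 7.82 and 5.89 TPM, or 71.2% and 68.4% of the gene, but 97.2% and 96.7% by expected counts. The short Esrrg-204 (450 nt) held 16.4% and 13.5% of the TPM on 12.6 and 10.3 counts. The non-coding Esrrg-205 (507 nt) held 12.4% and 18.1% on 11 and 16 counts. Part of the Esrrg level therefore rests on few reads. The coactivator gene Ppargc1a, taken from outside the top of its list, was at 24.2 and 16.9 TPM. All 12 mitochondrial genes listed as ERR targets were detected, against 51.7% of protein-coding genes. Their medians were 311 TPM in pool 1 and 273 TPM in pool 2. The oxidative phosphorylation subunits Cox6c (2591 and 3322 TPM), Cox5a (2475 and 2435 TPM), Atp5b (2195 and 2254 TPM) and Sdhb (547 and 526 TPM) led the list, of which Esrra itself is a member.

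The lipid-sensing receptors were all low. Nr1h2, encoding the oxysterol receptor LXRβ, had 4.43 TPM in pool 1 and 5.75 TPM in pool 2, and Nr1h3, encoding LXRα, had 2.11 and 3.90 TPM. Nr1h2 was 67.7% and 59.6% of its subfamily. All 9 LXR target genes listed were detected, against 51.7% of protein-coding genes. They were led by the lipoprotein gene Apoe (1825 and 2492 TPM) and the desaturase gene Scd2 (151 and 122 TPM). The sterol transporters Abcg1 (87.2 and 61.5 TPM) and Abcg4 (11.01 and 10.5 TPM) followed. Apoe is also on the glial marker list. Among the fatty-acid sensors, Pparg had 2.32 and 3.25 TPM, Ppara had 1.39 and 1.25 TPM, and Ppard had 1.27 and 0.74 TPM, so Ppard passed 1 TPM in pool 1 alone. Of 16 PPAR target and fatty acid oxidation genes, 14 were detected, against the same 51.7%. The carriers Fabp7 (514 and 423 TPM), Fabp5 (above) and Fabp3 (177 and 217 TPM) and the mitochondrial carrier Ucp2 (85.5 and 125 TPM) were highest, and Fabp7 is on the glial list as well.

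The remaining receptors were at or near the limit of detection. Nr6a1, encoding germ cell nuclear factor, had 0.84 TPM in pool 1 and 1.40 TPM in pool 2. Nr0b2, encoding SHP, a receptor without a DNA-binding domain, had 0.15 TPM from 3 expected counts in pool 1 and 1.31 TPM from 34 counts in pool 2, and its level rests on few reads. The immediate early genes of the Nur77 family were under 1 TPM in both pools. Nr4a1 was at 0.79 and 0.85 TPM, Nr4a3 at 0.44 and 0.66 TPM, and Nr4a2 at 0.44 and 0.50 TPM. Of the receptors for vitamin D and xenobiotics, Nr1i3 had 0.05 and 0.10 TPM, and Vdr and Nr1i2 had no count in pool 1 and 4 and 2 counts in pool 2. Nr1i3 shares 3304 exon bases with Tomm40l on the opposite strand (22.2 and 26.55 TPM), so even those few counts are uncertain.

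No count was assigned in either pool to 10 receptors. They were Hnf4a and Hnf4g, regulators of liver and gut, Nr5a1 and Nr5a2, regulators of steroid-producing tissues and liver, Nr0b1, which is known to act with Nr5a1, Nr1h4 and Nr1h5, the farnesoid X receptor genes, Nr2e3 of photoreceptors, Nr2e1 of neural stem cells, and Esr2. A limit of 3 counts would correspond to between 0.0487 and 0.126 TPM in pool 1 and between 0.0384 and 0.0996 TPM in pool 2, depending on gene length. These limits cover counting error only.

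Coregulators are the proteins through which the receptors act. Of 17 corepressor genes 15 passed 1 TPM in both pools, against 51.7% of protein-coding genes. Their medians were 9.30 TPM in pool 1 and 10.4 TPM in pool 2. Ncor1, the nuclear receptor corepressor, had 153 and 115 TPM, the scaffold gene Sin3b had 80.25 and 78.8 TPM, the deacetylase gene Hdac2 had 50.4 and 51.05 TPM, and Ctbp1 had 28.2 and 37.5 TPM. Hr, a corepressor of thyroid hormone receptors and RORα, did not pass, at 0.18 and 0.15 TPM. Of 23 coactivator genes 22 passed, with medians of 10.1 and 7.30 TPM. They were led by Ncoa7 (62.3 and 47.6 TPM), the ubiquitin ligase gene Ube3a (50.2 and 41.2 TPM), Ncoa4 (46.6 and 32.01 TPM) and Ncoa1, which encodes SRC-1 (29.3 and 20.3 TPM). Of these 22 coactivator genes, 4 were at least 1.5-fold higher in pool 1 and 1 was lower, against 11.5% and 6.74% of all genes with a mean of at least 1 TPM. The ratio between the pools followed transcript length (below), and these shares are not matched for it.

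The transcript that led a gene was mostly the same in both pools. Of the 22 detected receptors with more than 1 transcript in the files, 21 had the same leader in both pools, and the leader differed in 1, against 12.5% of all such genes in the files. At 5 TPM or more in both pools, it was the same in 11 of 11 receptors, and it differed in 9.84% of all such genes. The exception was Nr1h2. Nr1h2-201 held 68.95% of it in pool 1 and 14.9% in pool 2, and Nr1h2-204 held 11.8% and 84.2%. Both code for 446 amino acids, so the proteins are of the same length. The deposited bounds of Nr1h2-201 overlapped between the pools (0.667 to 3.48 TPM in pool 1 and up to 1.37 TPM in pool 2), and those of Nr1h2-204 did not (up to 1.71 TPM in pool 1 and 2.50 to 5.12 TPM in pool 2). All 22 leading transcripts are annotated as protein coding. Shares within a gene moved for several receptors without a change of leader: Rxrb-202 held 69.5% in pool 1 and 91.8% in pool 2, Pgr-204 held 80.4% and 96.04%, and Rorb-203 held 88.1% and 95.4%.

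Exons of 13 receptor genes overlap those of another gene in the annotation, and in 11 of them a partner lies on the opposite strand. Of the 13, 11 are among the detected receptors. Besides the cases given above, Rora shares 82 exon bases with the antisense gene Gm15511 (1.10 TPM in pool 1 and 1.13 TPM in pool 2), which is little beside its own level. Nr2f1 shares 123 bases with A830082K12Rik (16.5 and 11.2 TPM), Esrra shares 73 with Trmt112 (96.8 and 113 TPM), and Nr3c2 shares 247 with Gm10649 (1.64 and 1.93 TPM). The levels of these receptors are uncertain to the extent that reads of the shared bases were divided.

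Between the pools, 25 receptors with a mean of at least 1 TPM could be compared. In 5 the TPM was at least 1.5-fold higher in pool 1, against 11.5% of all genes at that level, and in 2 it was at least 1.5-fold lower in pool 1, against 6.74%. The 5 were Rorb (2.31-fold), Nr2f2 (2.15-fold), Esrrb (1.86-fold), Ppard (1.72-fold) and Pgr (1.60-fold). The 2 were Nr1h3 (2.11 TPM in pool 1 against 3.90 TPM in pool 2) and Nr6a1 (0.84 TPM against 1.40 TPM). In all, 16 receptors were higher and 9 lower in pool 1, and the median log2 ratio of TPM + 1, pool 1 over pool 2, was 0.20, against 0.07 (SD 0.44) for all genes. This direction depends on the scale: relative to the spike-ins 0 receptors were 1.5-fold higher and 10 lower in pool 1, with a median of -0.49. That scale lowers the log2 ratio of every gene alike, by the spike-in median of 0.69, so the shift is not particular to receptors. The shares of all genes past 1.5-fold were not computed on it. Without a filter on low values the median of the receptors was -0.043. Of the 23 receptors detected in both pools, the counting intervals of 13 did not overlap between the pools, among them those of Rora, and those of 10 did. Over all genes detected in both pools the intervals of 49% did not overlap, so the share among receptors was close to the background. The interval covers counting error only, so this is no measure of biological spread.

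The ratio between the pools followed transcript length in all genes. Its median was -0.05 where the mean transcript was shorter than 2000 nt, 0.13 from 2000 to 4000 nt and 0.25 from 4000 nt. The receptors lay along the same order, with medians of -0.36 (3 genes), 0.26 (13 genes) and 0.31 (9 genes). Of the genes of at least 4000 nt, 20.8% were at least 1.5-fold higher in pool 1 and 1.67% lower, and Rorb, Pgr and Esrrb are in that class. Relative to genes of like length, 4 receptors were 1.5-fold higher in pool 1 in place of 5, and the median log2 ratio was 0.05. What sets this relation was not tested.

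**Figure D4:**
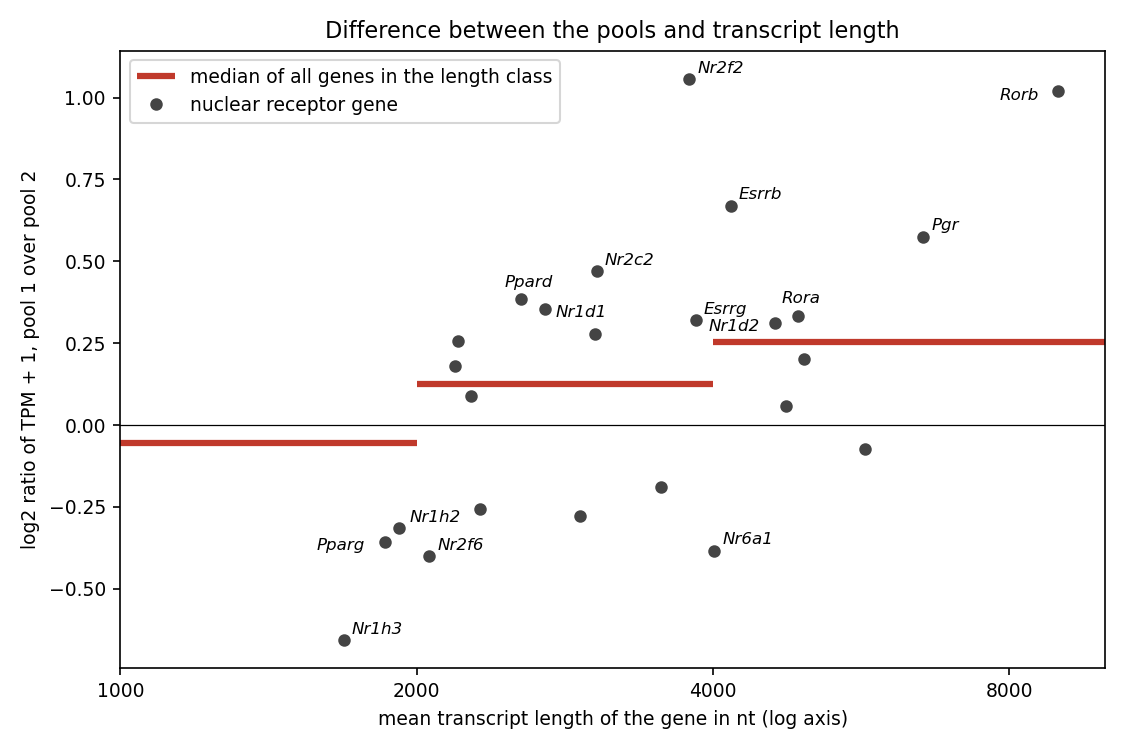
Log2 ratio of TPM + 1, pool 1 over pool 2, against mean transcript length in nt (log axis) for the 25 receptor genes with a mean of at least 1 TPM, with the median of all genes in each length class in red. The class medians run from -0.05 through 0.13 to 0.25, and Nr2f2 and Rorb lie highest.

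Markers of other cells and of Purkinje cell bands differed between the pools in both directions. All 10 microglia markers gave a summed 26.3 TPM in pool 1 and 44.6 TPM in pool 2, with none of them at 0 in both pools, and 4 of the 8 with a mean of at least 1 TPM were at least 1.5-fold lower in pool 1. The microglia marker P2ry12 went the other way (3.14 and 2.86 TPM), and Tmem119 was at 0.28 TPM in each pool. Nr1h3 (2.11 and 3.90 TPM) and Pparg (2.32 and 3.25 TPM), receptors known in microglia, are among the 9 receptors lower in pool 1. Pparg differed by less than 1.5-fold, and its counting intervals overlapped between the pools. The mean transcripts of both are shorter than 2000 nt, a class in which the median log2 ratio of all genes was -0.05. The 5 blood markers summed to 651 and 2274 TPM. Granule cell markers summed to 109 and 140 TPM, with none of the 6 compared past 1.5-fold and a median log2 ratio of -0.34. Of the 8 endothelial and pericyte markers compared, none was past 1.5-fold. Of the 13 Bergmann glia and astrocyte markers, 1 was at least 1.5-fold higher in pool 1 and none lower. Of the 10 oligodendrocyte markers with a mean of at least 1 TPM, 3 were at least 1.5-fold higher in pool 1 and none lower. Of the 8 molecular layer interneuron markers 1 was 1.5-fold higher (Kit, 11.6 TPM in pool 1 and 6.04 TPM in pool 2) and 1 lower (Prkcd, 9.83 and 38.65 TPM). Of the 4 Golgi and glycinergic neuron markers compared, 1 was lower (Sst, 1.01 and 13.35 TPM). P2ry12, Tmem119, Kit, Prkcd and Sst were singled out after their values were seen. Purkinje cells fall into bands that differ in zebrin, the product of Aldoc, which had 2409 TPM in pool 1 and 5861 TPM in pool 2. Plcb4, known from the zebrin-negative bands, had 352 and 177 TPM. What part the mix of bands or of other cells has in the ratios of Nr2f2, Rorb, Pgr, Nr1h3 and Pparg was not tested.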

How the data were processed

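RNA over 200 nt was sequenced from 2 pools of 50 cells, per the labels, and the labels number them as biological replicates 1 and 2. Per the notes deposited with the files, the authors quantified mm10 alignments against GENCODE release M4. No source used here states the aligner, the quantifier or the strand setting. Expected counts, as deposited, are unnormalized estimates of the reads of a gene or transcript. TPM, as deposited, sums to a fixed total in a library, and the spike-ins are part of that total. The authors also deposited, as a percent, how much of its gene each transcript makes up. Posterior mean TPM and bounds, also deposited, served as alternatives and descriptions.

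Of the entries, 26248 with numeric identifiers were left out. Symbols, gene types, exons and coding sequences came from GENCODE release M21, which named 42462 of 43346 mouse genes. Promoters came from RefSeq (GRCm38.p6). A gene was detected if its TPM reached 1 in each pool. Ratios are pool 1 over pool 2 for genes with a mean TPM of at least 1, and log2 values use TPM + 1, which understates ratios of low genes. Counting intervals are exact Poisson at 95%, and the limit for no counts is 3 counts. Reads carry no molecular identifiers, so both cover counting error only. For alternative scales, rounded expected counts (whole numbers) were passed to edgeR 4.0.16 (TMM) and DESeq2 1.42.0 (size factors) in R 4.3.3, and both were tested on simulated data. All else was computed in Python 3.11.15 with pandas 2.3.3, numpy 2.4.6, scipy 1.17.1 and matplotlib 3.10.9.

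All 47 receptors are named. Of each list the 4 genes with the highest mean TPM are named, and others are said to be outside that rule or were needed beside a receptor. Results of some list genes are not reported here. The list of receptors sets no rule on levels, but it, the pathway lists and the markers were drawn up with earlier results of these data known. The zebrin genes, the length classes, the count shares of Rora transcripts and the promoter search were added after the data were seen. A comparison of receptor proteins was not run. Of 24 coactivator genes listed 23 were matched, and of 18 steroid metabolism genes 17.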

Additional observations from a re-analysis of the deposited data

How the results depend on the processing

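With 1 group and 2 pools, no value here has a test. No paired analysis was possible because there is only 1 group of samples. Leaving out one pool gave 24 to 25 receptors detected, a Rora share of 58.9% to 61.1%, summed receptor levels of 477 to 580 TPM and a Rora-202 share of 69.96% to 72.1%. For ratios it leaves no value. At a threshold of 5 TPM 11 receptors were detected in place of 23. The Rora share averaged 59.96%, and was 57.9% with posterior mean TPM and 67.5% by expected counts. The Rora-202 share of 71.05% was 37.1% by counts. The same leading transcript was found for 11 of 11 receptors when 5 TPM was required, in place of 21 of 22, so fewer receptors were compared. The 5 receptors at least 1.5-fold higher in pool 1 became 3 with TMM scaling, 3 with size factors, 0 on the spike-in scale, 3 at a mean of at least 5 TPM and 2 at 2-fold. The 2 lower in pool 1 became 10 on the spike-in scale, 5 at a mean of at least 0.5 TPM, 0 at a mean of at least 5 TPM, 9 without a filter and 0 at 2-fold. The spike-in scale lowers the log2 ratio of every gene alike, by the median of 0.69 over 49 spike-ins. The median log2 ratio of the receptors, 0.20, turned to -0.49 on that scale and to -0.043 without a filter. It was 0.087 at a mean of at least 0.5 TPM, 0.31 at a mean of at least 5 TPM and 0.053 relative to genes of like length. The cause of these shifts was not tested. The direction of the differences between the pools therefore depends on the scale chosen. Leaving out a pool or rescaling to mouse genes can hardly move a mean or a share by more than the spread of 2 pools, so these settings say nothing about stability. Of the 38 alternatives for these results that do neither, 18 moved them by less than the spread between the pools, 1.5-fold for counts or 0.1 for the median ratio. Of 22 such alternatives for 11 subfamily shares, 14 stayed within the spread. Depth limits Nr0b2 and the receptors under 1 TPM.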
